A study of Drosophila melanogaster with 4 samples.

Results

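The regions described are short stretches of open chromatin on the euchromatic parts of chromosome arms 2L, 3L and 3R in Drosophila S2 cells, a cultured embryonic line with hemocyte-like properties, that were marked in both of the study's peak lists. Accessibility was measured by ATAC-seq, in which the Tn5 transposase inserts adapters into DNA not covered by protein. The study made 2 libraries from S2 cells depleted of the linker histone H1 by knockdown and 2 from control S2 cells that received LacZ, a bacterial sequence absent from the fly. Both deposited peak lists are named in the labels of all 4 libraries and neither is tied to a treatment, so every comparison here is between the longer list, called list L, and the shorter, called list S, and none is between knockdown and control.

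Members were rows of list L narrower than 600 bp that overlapped list S by at least 1 bp and whose midpoint lay below 21011544 on 2L, below 22543557 on 3L or above 2000000 on 3R (dm3). The rule found 888 members among the 5145 peaks of list L, which is 17.3% of that list. Their 890 partners made up 22.1% of the 4027 peaks of list S. Of the members, 270 were on 2L, 244 on 3L and 374 on 3R. Values that compare the lists are given for the 872 members that paired with 1 list S peak that had no other partner. The members were chosen by measured values, namely width in list L and overlap with list S, so the results are descriptions without a test. There is 1 list of each kind and no replicate. Intervals are 95% intervals, exact binomial for shares and from order statistics for medians. They take each peak as an independent count, cover nothing but counting error, and say nothing of the spread between cultures. Read depth is unknown.

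Euchromatin is the gene-rich part of the genome. There, narrow accessible sites typically form where factors bound at a promoter, enhancer or other regulatory element keep the DNA free of nucleosomes. Linker histone H1 binds the nucleosome where DNA enters and leaves it and helps to fold chromatin. A peak caller draws the edges of a site where the cutting signal falls to its significance limit and places the summit at the highest signal, so edges, summit and strength carry different information on 1 site. No dm3 sequence or annotation was used here, so the regions are identified by position and no gene is assigned to them.

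Narrow peaks were shared less completely than broad ones. Of the 1755 narrow list L peaks on these arms, 888 had a list S partner (50.6%, 48.2 to 53.0), against 276 of 280 broad peaks of 600 bp or more (98.6%, 96.4 to 99.6) and 66.9% of all list L peaks. The share climbed with list L width: 18.4% of peaks 100 to 200 bp wide had a partner, 58.6% of those 200 to 300 bp wide, 81.9% at 300 to 400 bp, 90.2% at 400 to 500 bp and 94.2% at 500 to 600 bp. Below 100 bp, 2 of 97 peaks were shared. The share also climbed with strength, read as the summed significance of a peak by the caller. With list L cut by strength into 4 equal parts, the share was 11.8% of the 534 narrow peaks in the weakest part, 40.8% and 81.8% in the next parts, and 228 of 228 in the strongest. Membership therefore leaned to the wider and stronger narrow peaks, with a median list L width of 313 bp (300 to 323) for members and 170 bp (165 to 176) for the 867 narrow peaks left without a partner.

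The members were spread along all 3 arms. Density was 12.9 per Mb on 2L, 10.8 on 3L and 14.4 on 3R. Each of the 68 full 1 Mb bins held at least 3 members, with a median of 10 and a maximum of 43. The fullest bins were 25 to 26 Mb on 3R, with 43 members of 83 narrow list L peaks, and the first Mb of 3L, with 41 of 65. The bin from 6 to 7 Mb on 3R held 31 of 40, a shared portion of 77.5%. The bin from 21 to 22 Mb on 3R held 3 of 13, or 23.1%.

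The strongest members were nearly the same region in both lists. The first by summed rank lay on 3R at chr3R:11451534-11451981 in list L and chr3R:11451550-11451978 in list S. It was 448 bp wide in list L and 429 bp in list S, with its summit on the same base, 11451696. Its −log10 p at the summit was 15.6 in list L and 15.3 in list S. By strength it ranked first among the 872 narrow pairs in each list. Among all peaks of a list it stood at percentile 96.1 in list L and 95.9 in list S. On 2L, chr2L:5292835-5293302 was 468 bp wide in list L and 430 bp in list S, and its summit again fell on the same base. On 3L, chr3L:3399518-3400087 was 570 bp wide in list L and 530 bp in list S, with summits 58 bp apart. The region at chr3L:17583597-17584139 measured 543 bp in list L and 479 bp in list S, and chr3R:12062034-12062577 measured 544 bp and 523 bp, with summits 0 and 2 bp apart. In these 5, list L was wider by 19 to 64 bp, which is small beside their widths. The weakest pair by summed rank, chr3L:12954607-12954742, picked after its values were seen, was 136 bp wide in list L and 94 bp in list S, with summits 4 bp apart.

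Most members were wider in list L. The median width was 313 bp in list L (300 to 321) and 245 bp in list S (236 to 254). The median within a pair was a ratio of 1.19 (1.17 to 1.22) or a log2 ratio of 0.25 (0.22 to 0.28), and the median difference was 47 bp (42 to 52). List L was the wider in 778 of 872 pairs (89.2%), against 76.5% of all 3274 one-to-one pairs of the lists. List S was the wider in 87 pairs (9.98%), against 21.0% over all pairs, and 7 pairs had equal widths. List L was at least 1.5-fold wider in 184 pairs (21.1%), against 12.3% of all pairs, while list S was at least 1.5-fold wider in 7, against 1.86% of all pairs. Because narrow width in list L was part of the rule, a list L peak that happened to be called wide could not be a member. With the 600 bp limit applied to list S instead, the median log2 ratio was 0.26 (0.24 to 0.29).

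**Figure D1:**
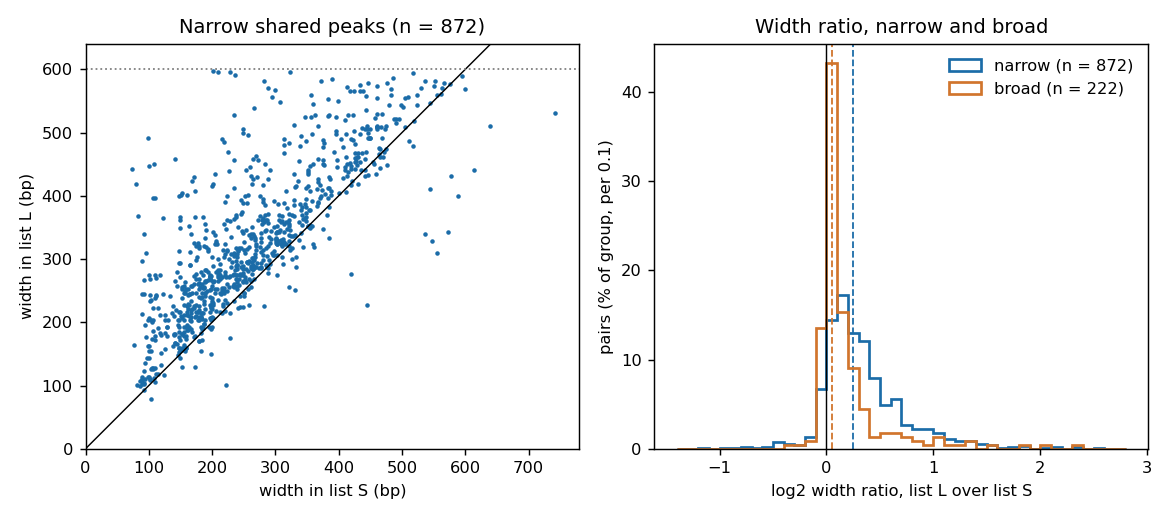
Width in list L (bp, vertical) against width in list S (bp, horizontal) for 872 narrow one-to-one pairs, left, with the line of equal width and a dotted line at the 600 bp limit. The right panel shows the log2 width ratio of list L over list S as percent of pairs per 0.1 for narrow (n = 872) and broad (n = 222) pairs, with dashed medians at 0.25 and 0.06: most narrow points lie above the line of equal width.

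Broad shared peaks of the same arms differed less in width between the lists. Their 222 one-to-one pairs had a median log2 ratio of 0.06 (0.04 to 0.08), against 0.25 for narrow pairs. In bp the gap was smaller: the median width difference was 47 bp (42 to 52) for narrow pairs and 38 bp (25 to 62) for broad pairs. List L was the wider in 84.7% of broad pairs (79.3 to 89.2), near the 89.2% (87.0 to 91.2) of narrow pairs. Under 600 bp the ratio had no clear order by list L width. It was 0.22 (0.14 to 0.25) for 107 pairs 100 to 200 bp wide, 0.30 (0.26 to 0.36) for 296 pairs of 200 to 300 bp, 0.24 for 229 pairs of 300 to 400 bp, 0.21 for 145 pairs of 400 to 500 bp and 0.24 for 93 pairs of 500 to 600 bp. In list S 3 narrow pairs were at or over 600 bp, and 46 broad pairs were under it.

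The peaks nearest the limit are given as examples and need not stand for others near it. Just inside it, chr2L:18732613-18733210 was 598 bp in list L and 202 bp in list S. The next members, chr3R:16654539-16655134 and chr3R:19184918-19185513, were both 596 bp in list L, and 228 and 323 bp in list S. Just outside it, chr3R:25610155-25610754 was 600 bp in list L and 535 bp in list S. The peaks chr3L:19784492-19785092 and chr3R:25025753-25026353 were both 601 bp in list L, and 495 and 484 bp in list S. For comparison, the 93 pairs 500 to 600 bp wide in list L had a median list S width of 446 bp (434 to 461).

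Over all members the left and right edges differed by similar medians. Peaks have no orientation, so these medians do not show how a single pair divided its additional width. The left edge lay a median of 19 bp further out in list L (17 to 22) and the right edge 19 bp (17 to 21). The left edge was further out in list L in 739 pairs (84.7%, against 70.8% of all one-to-one pairs), on the same base in 54 and further out in list S in 79. For the right edge the numbers were 744 (85.3%, against 71.4% of all pairs), 37 and 91. Over all one-to-one pairs the left edge lay a median of 7 bp and the right edge 8 bp further out in list L. One edge at least 50 bp out in list L with the other within 10 bp was found in 80 pairs (9.17%), against 6.87% of all pairs. Both edges lay at least 50 bp out in 65 (7.45%), against 4.61% of all pairs. In broad pairs these shares were no lower, at 11.3% and 8.56%. Both edges matched within 10 bp in 121 narrow pairs (13.9%), against 34.1% of all pairs and 25.7% of broad pairs. By this share the outlines of members matched less closely than those of broad pairs and of the lists as a whole. Within pairs the edges differed unequally. The larger edge difference was similar in narrow and broad pairs, at medians of 36 bp (34 to 39) and 33 bp (23 to 46). The smaller edge difference was a median of 9 bp (9 to 10) in narrow pairs and 3 bp (1 to 5) in broad pairs. Across the 872 pairs, Spearman's rho between the left and the right edge difference was 0.28. Over all 3274 pairs it was 0.50 and in broad pairs 0.27. Edges of 1 pair share its depth and signal, so this is a description.

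The usual arrangement was a list S peak nested inside the list L peak. This held in 729 pairs (83.6%, 81.0 to 86.0), counting shared edges as inside, against 69.4% of all one-to-one pairs and 158 of 222 broad pairs (71.2%, 64.7 to 77.0). The list L peak lay inside the list S peak in 54 narrow pairs (6.19%), against 16.5% of all pairs. The pairs were staggered in 93 cases (10.7%), against 15.3% of all pairs, with list L shifted to the left in 51 and to the right in 42. Edges were identical to the base in 4 pairs (0.459%), against 1.22% of all pairs. They lay on 3L at chr3L:408557-408909 and chr3L:17025203-17025417 and on 3R at chr3R:3918557-3918908 and chr3R:23999933-24000386. These 4, picked after their values were seen, were 353, 215, 352 and 454 bp wide, and their summits lay 140, 1, 146 and 9 bp apart.

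The largest changes of width were one-sided. The member with the highest ratio, chr3R:11301875-11302316, was 442 bp wide in list L and 74 bp in list S (ratio 5.97). Its right edge was 322 bp further out in list L and its left edge 46 bp, while the summits lay 10 bp apart. Next came chr3R:24938987-24939405, with 419 bp in list L and 80 bp in list S, where the right edge differed by 313 bp and the left by 26 bp. In chr3L:4225905-4226395, 491 bp in list L and 99 bp in list S, it was the left edge that differed most, by 323 bp against 69 bp. In chr3R:24705777-24706223, 447 bp in list L and 100 bp in list S, the right edge differed by 319 bp and the left by 28 bp. In all 4 the list S peak was a short core around a summit within 41 bp of the list L summit.

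The reverse cases were one-sided too. The member with the lowest ratio, chr2L:771205-771305, was 101 bp wide in list L and 222 bp in list S, which started 118 bp earlier and ended 3 bp later. The member chr3R:19384749-19384975 was 227 bp in list L and 445 bp in list S, which ended 213 bp later and started 5 bp earlier. On 3L, chr3L:643176-643484 was 309 bp in list L and 555 bp in list S, and the lists put its summit on the same base. On 3R, chr3R:2337851-2338192 was 342 bp in list L and 572 bp in list S, which started 235 bp earlier.

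Summits of members lay close together in the lists, but further apart than in the lists as a whole. The median distance between the summits of a pair was 8 bp (6 to 9), against 3 bp (2 to 4) over all one-to-one pairs. Summits fell on the same base in 181 pairs (20.8%), against 32.8% of all pairs. Summits were within 10 bp in 512 narrow pairs (58.7%, 55.4 to 62.0), against 69.1% of all one-to-one pairs and 149 of 222 broad pairs (67.1%, 60.5 to 73.3). Summits were over 100 bp apart in 81 narrow pairs (9.29%, 7.45 to 11.4), 34 broad pairs (15.3%, 10.8 to 20.7) and 7.54% of all one-to-one pairs. Within the narrow pairs Spearman's rho between summit distance and list L width was 0.00. The list L summit lay further right in 326 pairs and further left in 365. It fell inside the list S peak in 868 of 872 pairs, and the list S summit fell inside the list L peak in all 872.

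Summits sat in the central part of most members. They lay at a median of 50.2% of the width from the left edge in list L (48.8 to 51.8) and 49.7% in list S (47.8 to 51.8). Peaks have no orientation, so these medians do not show whether single summits were central. In broad pairs the median place in list L was 47.4% (41.4 to 53.2). Of 3 equal parts of the peak, the central one held the summit in 65.4% of narrow pairs in list L (62.1 to 68.5) and 60.4% in list S (57.1 to 63.7). In the broad pairs it did so in 45.9% in list L (39.3 to 52.7) and 48.6% in list S (41.9 to 55.4). Over all one-to-one pairs it did so in 59.7% in list L and 56.9% in list S, which is near the members' shares. The distance from the summit to the nearer edge was a median of 110 bp in list L and 80.5 bp in list S for narrow pairs.

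In 3 of the 4 members with the largest summit distance, the summit was near the right edge in list L and near the left edge in list S. In chr3R:25554229-25554810, 582 bp in list L and 536 bp in list S, the summits lay 378 bp apart, although the left edges differed by 15 bp and the right edges by 61 bp. The next was chr3L:623064-623658, 595 bp in list L and 210 bp in list S, with summits 351 bp apart. Here list S marked only the left portion of the list L peak. The other two, chr3R:25584353-25584690 and chr3R:25512371-25512728, had summits 245 and 233 bp apart, with widths of 338 and 358 bp in list L and 321 and 317 bp in list S. Of these 4 members, 3 lay within the bin from 25 to 26 Mb on 3R, which held the most members.

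**Figure D2:**
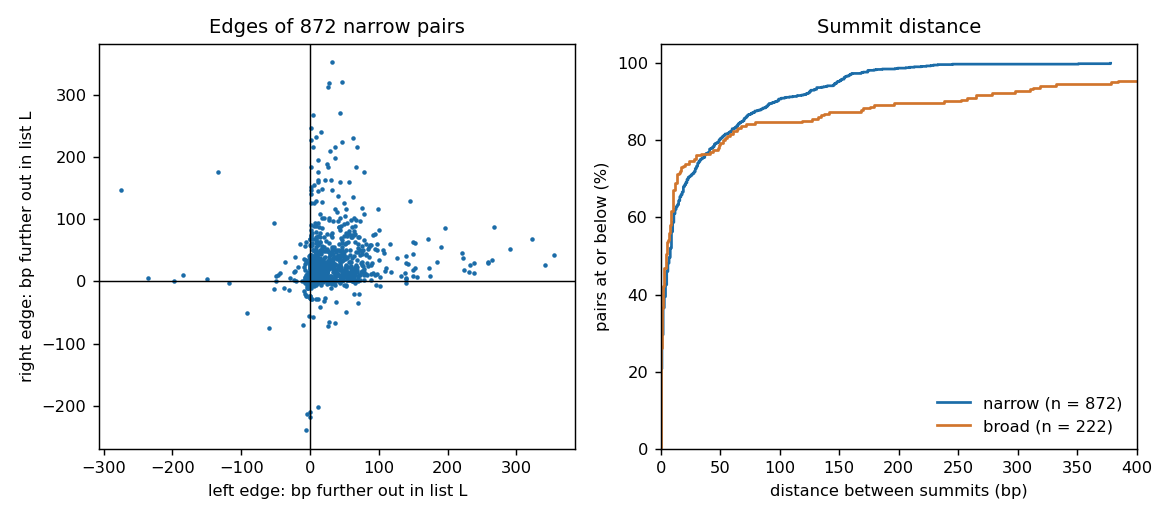
Left, bp by which the right edge (vertical) and the left edge (horizontal) lay further out in list L, 1 point for each of 872 narrow pairs: most points lie at or above 0 on both axes, with arms along the axes where 1 edge differed. Right, percent of narrow (n = 872) and broad (n = 222) pairs with summits at or below a given distance in bp, shown up to 400 bp: 58.7% of narrow and 67.1% of broad pairs lie within 10 bp.

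Width differed between the lists at every level of strength, most clearly among weak list S peaks. Pairs were divided into 5 parts by their mean strength rank in the lists. From the weakest to the strongest part the median log2 ratio was 0.31, 0.36, 0.28, 0.23 and 0.17. In the strongest part, the width was a median of 455 bp in list L and 377 bp in list S, list L was wider in 94.9% of pairs, and summits lay a median of 3 bp apart (1 to 6). In the third part the summits lay 11 bp apart (8 to 19). The order depended on which list set the parts. Ranked by list S strength the ratio went from 0.53 (0.42 to 0.60) in the weakest part to 0.13 (0.11 to 0.16) in the strongest, while ranked by list L strength it was 0.19, 0.25, 0.42, 0.29 and 0.20. Strength is summed over the width, so a peak that is narrow in list S is also weak there.

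The arms gave similar widths and summit distances. The median log2 width ratio was 0.26 (0.21 to 0.32) on 2L, 0.30 (0.23 to 0.36) on 3L and 0.23 (0.19 to 0.26) on 3R. List L was the wider in 90.6% of pairs on 2L, 90.3% on 3L and 87.5% on 3R. Summits lay a median of 8, 7.50 and 8 bp apart on the same arms. The share of narrow list L peaks with a partner was 51.5% (47.2 to 55.9) on 2L, 45.8% (41.5 to 50.1) on 3L and 53.6% (49.8 to 57.3) on 3R. The gap from a partner to the nearest list S peak varied more, with a median of 1257 bp (990 to 1651) on 2L. It was 2165 bp (1033 to 4755) on 3L and 960 bp (714 to 1218) on 3R. Around members in list L the median gaps were 629, 628 and 579 bp on the same arms.

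The order of the members by strength was kept loosely. Ranked among the same 872 pairs in each list, a member moved by a median of 12.4 percentile points (11.6 to 13.1), against 6.31 (5.41 to 8.56) for broad pairs ranked among themselves and 7.30 (6.84 to 7.76) for all one-to-one pairs. Spearman's rho between the lists was 0.78 for narrow pairs, 0.92 for broad pairs and 0.85 for all pairs. Of the strongest 87 narrow pairs of each list, 64 were the same (73.6%), against 296 of the strongest 327 over all pairs (90.5%). In list L 128 members (14.7%) stood over 20 points higher than in list S, against 9.96% of all one-to-one pairs ranked together, and 119 (13.6%) stood over 20 points lower, against 5.47%. In broad pairs these numbers were 19 and 1 of 222. Each set was ranked within itself, so a percentile point is a different step of strength in each set. These shifts are therefore not on the same scale. Set among all 3274 one-to-one pairs of the lists, which include the scaffolds, the median member stood at percentile 45.4 in list L (43.4 to 48.2) and 37.0 in list S (33.7 to 39.6), and 64.1% of members stood higher in list L, against 41.9% of all these pairs. Broad pairs stood at 79.5 in list L and 76.9 in list S, and 49.5% of them stood higher in list L.

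Rank and width moved together. Spearman's rho across the 872 pairs between the log2 width ratio and the rank gain in list L was 0.66 by strength and 0.61 by the p of the summit, which is not summed over the width. Over all one-to-one pairs these values were 0.72 and 0.69, and in broad pairs 0.55 and 0.46. Width and rank come from the same signal in a list. The largest gain was at chr2L:18732613-18733210, also the member next to the width limit, at rank percentile 75.1 in list L and 10.7 in list S, with 598 bp and 202 bp. It was followed by chr3R:12062714-12063203 (60.6 in list L and 6.65 in list S), chr3R:14222957-14223306 (77.1 and 23.5) and chr2L:12618038-12618331 (62.0 and 8.94). All 4 were at least 1.45-fold wider in list L. The member chr3R:12062714-12063203 lies 136 bp from chr3R:12062034-12062577, which stood at 99.3 in list L and 99.5 in list S, so the rank of this neighbour was kept.

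The largest losses were at chr3L:643176-643484 (20.1 in list L and 80.6 in list S), chr2L:9902297-9902426 (6.42 and 63.4), chr2L:16158831-16159280 (7.11 and 54.9) and chr3R:19146114-19146575 (21.7 and 67.8). Their widths were 309, 130, 450 and 462 bp in list L and 555, 173, 455 and 412 bp in list S. The member chr2L:16158831-16159280 had its right edge and its summit on the same base in both lists and its left edge 5 bp further out in list S.

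Members tended to lie near other peaks. The gap to the nearest list L peak was a median of 614 bp (542 to 664), against 1334 bp (1019 to 1562) for narrow peaks without a partner and 280 bp (233 to 333) for broad shared peaks. A neighbour lay within 1 kb of 537 members (60.5%, 57.2 to 63.7), of 46.3% (42.9 to 49.6) of narrow peaks without a partner of 85.1% (80.4 to 89.1) of broad shared peaks and of 51.6% of all list L peaks. Among narrow list L peaks, those with a neighbour within 1 kb had a partner in 57.2% of cases (54.0 to 60.4), those with one at 1 to 10 kb in 48.4% (43.7 to 53.2), and more isolated ones in 36.5% (31.6 to 41.6). No peaks of either list were closer than 101 bp.

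List S left more room around its peaks. On these arms list L held 2035 peaks and list S 1227. The gap to the nearest peak was a median of 614 bp around members in list L and 1207 bp (990 to 1444) around their partners in list S. A neighbour within 1 kb was found for 60.5% of members in list L and for 46.7% of partners in list S (43.4 to 50.1), against 47.0% of all list S peaks. For broad peaks the medians were 280 bp in list L and 242 bp in list S. The nearest list L neighbour of a member had a list S partner itself in 557 of 888 cases (62.7%), against 67.6% over all list L peaks. In 502 of 872 member pairs (57.6%) the nearest neighbour was the same in both lists, against 64.8% of all one-to-one pairs. In these 502 the gap was a median of 46 bp larger in list S (36 to 54). Of the 872 member pairs, the gap was at least 2-fold larger in list S in 265 (30.4%), against 18.5% of all one-to-one pairs. It was smaller in list S in 80 (9.17%), against 22.8% of all pairs. Over the whole lists the median gap was 900 bp in list L and 1207 bp in list S.

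**Figure D3:**
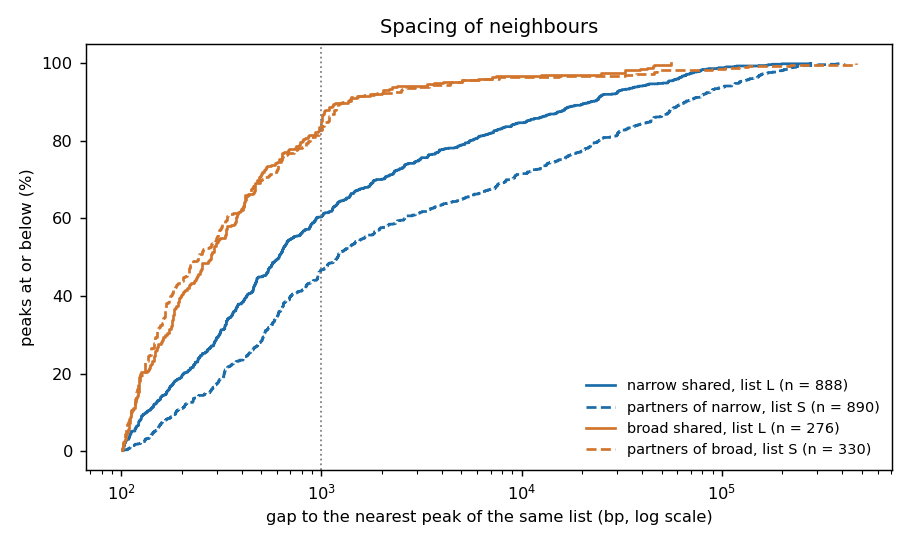
Percent of peaks whose gap to the nearest peak of the same list is at or below a given size (bp, log scale), for narrow shared peaks (blue, solid in list L, n = 888, dashed in list S, n = 890) and broad shared peaks (orange, n = 276 and n = 330), with a dotted line at 1 kb. The blue curves stand apart, at 60.5% in list L and 46.7% in list S at 1 kb, and the orange curves lie close together.

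Members with a close neighbour differed less in width than isolated ones. The 526 pairs with another peak within 1 kb in either list had a median log2 ratio of 0.19 (0.17 to 0.21), and the 346 others 0.34 (0.30 to 0.37). List L was the wider in 84.4% (81.0 to 87.4) and 96.5% (94.0 to 98.2) of them. Their list L widths were close, at medians of 318 and 306 bp. Their ranks also moved in opposite ways, by a median of -5.96 points in list L relative to list S for pairs with a close neighbour and by 5.10 points for the others. The edge toward a list L neighbour within 1 kb lay 14.5 bp further out in list L (12 to 17) and the edge away from it 12 bp (10 to 16). Chained at gaps of up to 1 kb through any list L peak, the members fell into 645 runs, of which 498 held 1 member, 94 held 2, 29 held 3 and 24 held 4 or more, up to 8.

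The densest windows of 10 kb lay on 3R and 2L. From 6630001 to 6640000 on 3R there were 8 members, 156 to 579 bp wide, among 9 peaks in list L and 9 in list S. From 6890001 to 6900000 on 3R there were 7 members among 8 peaks in each list. From 18670001 to 18680000 on 2L there were 6 members among 8 list L and 6 list S peaks, and 4 more windows on 3R also held 6 members.

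Only 16 members lacked a simple partner, against 54 of 276 broad shared peaks. A list S peak bridged a member and another list L peak in 10 places, and 4 members were split into 2 list S peaks. On 3L the list S peak chr3L:656847-658388 overlapped the member chr3L:658008-658403 and the end of a 7641 bp list L peak. On 3R the list S peaks chr3R:25557114-25558681 and chr3R:25590710-25592195 each joined a member, 300 and 100 bp wide, to a broad peak of 1185 and 1233 bp. On 2L, chr2L:9394969-9396398 joined a member of 186 bp to a peak of 1152 bp. The members split in list S were 455 to 586 bp wide in list L.

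Some members were parts of arrangements that occurred at several places. This was seen in the data and then counted. Neighbouring list L peaks up to 10 kb apart were compared, in either orientation, by their widths and the gap between them. Within 3 bp on all 3 values, 113 of 2973 such intervals recurred elsewhere in list L, and they contained 57 members (6.42%), against 3.87% of all list L peaks. The number of members was 44 at a tolerance of 2 bp, 96 at 5 bp and 180 at 10 bp, so it depends on the tolerance. How many would match by chance was not tested. Neither list S nor the summits entered this comparison of intervals.

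Among members, the clearest case was at 4 places, on 2L at chr2L:353943-354433, chr2L:12939890-12940380 and chr2L:20309201-20309691 and on 3L at chr3L:8497437-8497927. Each of these members was 491 bp wide in list L, and 446, 449, 448 and 449 bp wide in list S. The list L summit lay 168 bp after the start at all 4. The list S summit lay 299, 300, 299 and 300 bp after the start of the list S peak. These members were found by a separate search, for members alike within 3 bp in width and summit offset in both lists. Their likeness in these values was thus a condition of that search. At each place another member started 3061 bp before the 491 bp member. A further member started 2327, 2333, 2327 and 2327 bp before it, and a broader peak of 798, 794, 795 and 710 bp lay in between. The summit −log10 p of the 491 bp members ran from 5.69 to 5.76 in list L and from 5.49 to 5.53 in list S. The row that ends in the 491 bp member was thus alike at these 4 places on 2 arms. Beyond it the layout differed. The next list L peak started 872, 1095, 772 and 873 bp after the start of the 491 bp member and was 511, 338, 653 and 550 bp wide. At the second place, a further list L peak of 176 bp, with no counterpart at the other places, started 3527 bp before it. The search for the 491 bp profile covered members only, and parts of the row also recurred outside them. On scaffold 2RHet a 795 bp peak was followed, after a gap of 883 bp, by a 493 bp peak with its summit at 168 bp. Peaks of 272 and 797 bp lay 376 bp apart on scaffold 3LHet, and peaks of 284 and 796 bp lay 374 bp apart on X.

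An evenly spaced row of members lay at the tip of 3R. There were 6, the last peaks of the arm in both lists, from chr3R:27899168-27899676 to chr3R:27904081-27904591. They were 505 to 511 bp wide in list L and 460 to 466 bp in list S. Their starts were 984 bp apart at 4 of the 5 steps in list L and 977 bp at the other, and 984 bp apart at all 5 steps in list S. The summit −log10 p ran from 7.23 to 7.29 in list L and from 6.82 to 6.89 in list S.

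**Figure D4:**
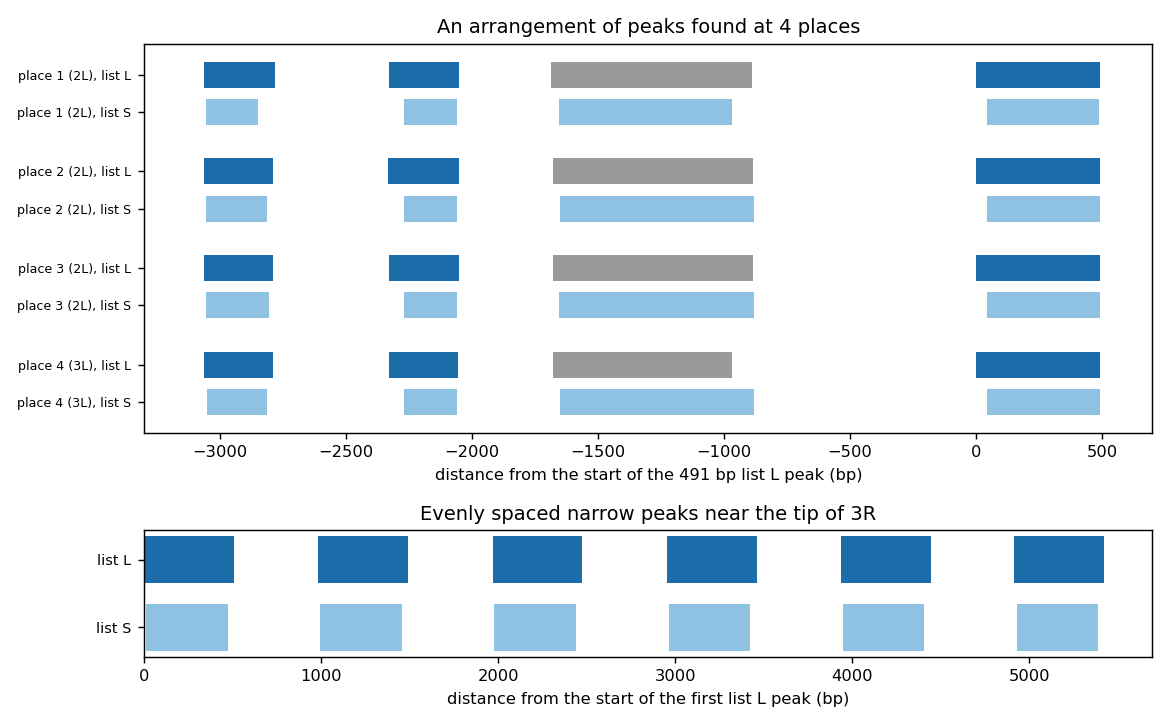
Top, list L and list S peaks at 4 places, drawn to scale by distance (bp) from the start of the 491 bp list L peak: dark blue bars are members, grey bars list L peaks of 600 bp or more, pale blue bars list S peaks, drawn only up to the 491 bp peak, where the layout is alike in all 4 places. Bottom, the 6 evenly spaced members near the tip of 3R in list L (dark) and list S (pale), by distance (bp) from the start of the first list L peak.

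Members in recurring arrangements stood lower by strength in list L than in list S. Of their 56 one-to-one pairs, 53 (94.6%) had the lower rank percentile in list L, against 395 of 816 (48.4%) of the other pairs. Over all one-to-one pairs ranked together, 57.4% had the lower rank in list L. Among narrow pairs, it was 62.0% of those with a neighbour within 1 kb and 35.3% of those without. The members in recurring arrangements had a median list L gap of 460 bp (374 to 476), against 650 bp (593 to 783) for the other pairs. They were chosen by widths and gaps in list L, where they were also weaker and narrower. Their median percentile in list L was 45.7 (39.3 to 55.5) against 63.2 (61.3 to 65.0). Their median width there was 281 bp (274 to 306) against 315 bp (304 to 324). Whether this accounts for the lower rank was not tested. Their median rank change was -14.6 points (-17.2 to -10.8), against 0.344 (-1.03 to 1.61). Their width ratio was smaller, at a median log2 of 0.14 (0.13 to 0.20) against 0.26 (0.23 to 0.29). Their summits lay a median of 3.50 bp apart (2 to 10) against 8 bp (6 to 9). At the widest tolerance of 10 bp, 136 of 175 pairs (77.7%) had the lower rank in list L. How reads that fit several places were handled is unknown, so these members may not be separate measurements.

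**Figure D5:**
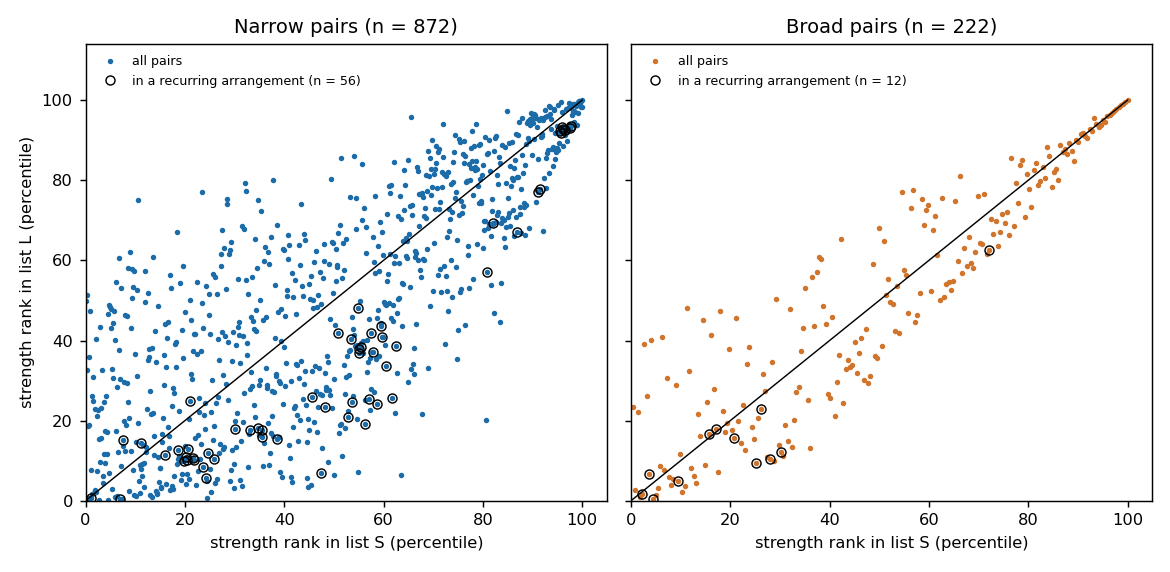
Percentile rank by strength in list L (vertical) against list S (horizontal), each ranked among the same pairs, for narrow (left, n = 872) and broad (right, n = 222) pairs, with the line of equal rank. Open circles mark pairs in recurring arrangements, 53 of 56 of which lie below the line in the narrow panel.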

How the data were processed

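The authors deposited 2 peak lists in dm3 without headers, with 10 columns in narrowPeak order. Per the submitters' processing notes, reads were aligned with Bowtie2 and peaks called with Genrich 0.5. For options, filters, pooling of libraries and reads that fit several places, the answer is not given in the sources used here. Other deposited columns hold whole-number positions (start, end, summit). In every row the deposited score, at most 1000, matched the area divided by the width times 1000, to within 1. The area (here strength) is a caller score of at least 20.0 in list L and 20.1 in list S. The summit p-value was deposited as −log10; the q-value was not used. Strength and p served only to describe or rank peaks within a list.

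Members were found by the stated rule. All values were computed with scipy 1.17.1, pandas 2.3.3, numpy 2.4.6 and Python 3.11.15, and the functions were tested on simulated lists. Positions are 1-based. The regions named follow a fixed rule: extremes of summed rank, width ratio, summit distance and rank change, the peaks next to 600 bp, bridged or split peaks, and the fullest 10 kb windows. Exceptions are marked. The members and the comparisons were chosen with earlier results of these data known. No sequence is shown, as no dm3 genome was used here. Alternatives are given in the closing section.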

Additional observations from a re-analysis of the deposited data

How the results depend on the processing

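Over 11 alternative settings, 103 of 131 values stayed within the interval of the reported one, 28 moved beyond it and 0 reversed. Leaving out members in recurring arrangements was added after seeing the data and moved none of 12. With a reciprocal overlap of 50%, 46.2% of narrow peaks were shared, the log2 width ratio was 0.22 and the rank shift 11.5. Below 400 bp they were 43.2% shared, with a left edge difference of 16.5 bp and a rank shift of 14.2. With the width limit set on list S, the list S gap was 970 bp and 50.8% of partners had a neighbour within 1 kb, and the share with a partner has no value by construction. In the stronger 50% of each list, 47.0% were shared, the log2 ratio was 0.17, the right edge difference 15 bp, the summit distance 5 bp and the rank shift 15.5. By construction this setting also took weaker list S peaks away as possible partners. In the full list S the median partner stood at percentile 40.2. The gaps were then 1738 bp in list L and 3958 bp in list S, with neighbours within 1 kb for 43.1% and 33.7%, as fewer peaks were left. Without members that had another peak within 500 bp, 46.3% were shared, the log2 ratio was 0.30, 94.2% were wider in list L, 89.2% were nested, and the edges differed by 23 bp (left) and 23.5 bp (right). By construction the gaps then grew, to 2449 bp in list L and 6292 bp in list S, with neighbours within 1 kb for 27.8% and 19.7%. Without arm 3R the log2 ratio was 0.29. Pairing each member with its largest overlap, moving the limits by 1 Mb, and leaving out 2L or 3L moved no value. Where not stated, the cause of a change was not tested. Read depth limits strength, edges and partners to an unknown degree.

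No paired analysis was possible because the lists carry no replicate number. With 1 list of each kind, leaving out a replicate gave no value.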
